A study of Mus musculus with 28 samples.

Results

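Lung cells sorted as type 1 alveolar epithelial cells (AEC1) were compared between mice given papain together with FK506 and untreated mice. The comparison rests on 4 of the 28 libraries of the series, 2 per group, chosen by their sort label and treatment alone. A further 2 AEC1 libraries, from papain without FK506, entered the filter on low values and the estimate of the spread. All mice were wild-type C57BL/6 animals aged 8 weeks. Papain, a plant cysteine protease, was instilled into the nose at 50 µg in 40 µL of PBS per day. FK506 (tacrolimus) went into the peritoneal cavity in methyl cellulose, 0.2 mg per head daily for 3 days and, after 2 days, for 3 more days alongside papain. The untreated group received neither agent. With no FK506-only group among the AEC1 libraries, an effect of FK506 and an effect of papain cannot be told apart in this contrast. Nothing in the labels says whether the 2 libraries of a group came from separate animals, so p-values measure the spread between these libraries only.

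AEC1 are the broad flat cells that cover most of the gas-exchange surface and mark themselves with the receptor Ager, the homeodomain protein Hopx, podoplanin (Pdpn) and the water channel Aqp5. Papain injures the airway lining, which releases alarmins such as interleukin 33 and sets off type 2 inflammation. FK506 binds the immunophilin FKBP12, encoded by Fkbp1a, and the complex blocks calcineurin, the phosphatase that lets NFAT transcription factors enter the nucleus.

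Expression was deposited as CPM (reads of a gene scaled to 1 shared library size) from 3′-end sequencing of 10 ng of total RNA. One read was worth 1.17 and 1.18 CPM in papain + FK506, against 1.12 and 1.15 CPM in untreated libraries. The estimated depth was 845896 and 837625 reads in papain + FK506 and 881746 and 859015 reads in untreated, with 7334 and 7276 genes above 0 against 6334 and 6488. Replicates were loose: of 4506 genes that reached 50 CPM in at least 1 papain + FK506 library, 655 (14.5%) were listed at 0 in the other, as were 932 of 4236 such genes in untreated. Apart from this spread between replicates, the housekeeping gene Gapdh was listed at 0 in each of the 6 AEC1 libraries, and the reason was not tested. Values of 0 are accordingly reported as listed, and ratios to a group at 0 are left out. Across genes, log2 values of AEC1 libraries of the same group correlated at r = 0.53 to 0.59, and those of different groups at 0.46 to 0.57 (9841 genes, which are not independent replicates). Mitochondrially encoded RNA took 9.71 and 8.44% of the CPM in papain + FK506, 9.14 and 30.56% in papain, and 19.39 and 20.49% in untreated libraries, so papain replicate 2 stood apart from its partner.

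The sort label was checked against marker lists. Hopx was at 0 and 1.2 CPM in papain + FK506, and at 0 in both untreated libraries. Ager was at 94.5 and 114.4 CPM in papain + FK506 and at 50.5 and 75.9 CPM in untreated, while the 6 AEC2-labelled libraries held 1384 to 3505.7 CPM. Pdpn went the other way, with 229.9 and 432.9 CPM in papain + FK506, 98.8 and 125.4 CPM in untreated, and 0 in all 6 AEC2-labelled libraries. The epithelial adhesion gene Epcam was at 0 and 8.3 CPM in papain + FK506, against 0 and 31.1 CPM in untreated libraries. The lung epithelial factor Nkx2-1 was at 0 and 3.5 CPM in papain + FK506 and at 0 in both untreated libraries. Summed over the list, the 20 AEC1 markers held 1139 and 1201 CPM in papain + FK506 and 1548 and 1942 CPM in untreated, below the 2405 to 5371 CPM in AEC2-labelled libraries. The 18 fibroblast markers held 28083 and 19537 CPM in papain + FK506 and 12416 and 10840 CPM in untreated, against 414 to 913 CPM in AEC2-labelled libraries. The 16 mesothelial markers likewise held 4472 and 5710 CPM against 13517 and 11441 CPM, and 399 to 1210 CPM in AEC2-labelled libraries. The 18 AEC2 markers held 2350 and 5753 CPM in papain + FK506 and 8158 and 12322 CPM in untreated, against 127715 to 155851 CPM in AEC2-labelled libraries. In untreated replicate 2 their sum was above the fibroblast and the mesothelial sum. In each of the 6 libraries the fibroblast, the mesothelial and the AEC2 sum exceeded the AEC1 sum, and the libraries are called AEC1-labelled below. In bulk samples such as these, more cells of a type and more RNA per cell cannot be told apart.

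**Figure D1:**
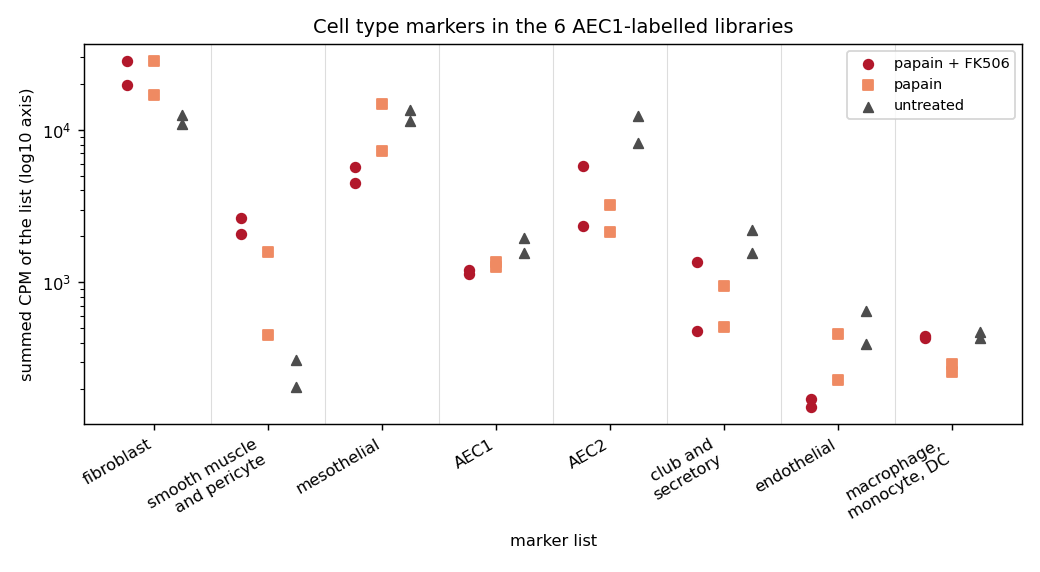
Summed CPM of 8 marker lists (log10 axis) in the 6 AEC1-labelled libraries, 1 point per library, with papain + FK506 left, papain in the middle and untreated right. Fibroblast and smooth muscle sums were higher in both papain + FK506 libraries than in both untreated libraries, and mesothelial, AEC1, AEC2, club and endothelial sums were lower.

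Across 8178 genes that reached 10 CPM in at least 2 AEC1-labelled libraries, limma passed 2 genes at an adjusted p under 0.05, both higher with papain + FK506 (0.0245% of those tested), and 0 lower. The unadjusted limma p was under 0.05 for 601 genes that were higher (7.35%) and 356 that were lower (4.35%). The 2 papain + FK506 values lay above both untreated values for 2039 genes (24.9%) and below both for 1176 (14.4%), together 39.3%. The quasi-likelihood test of edgeR on the whole reads recovered from the CPM passed 29 genes, 26 of them higher (0.318%) and 3 lower (0.0367%). DESeq2 passed 272 higher (3.33%) and 185 lower (2.26%), and limma's voom passed 1. The median log2 difference of all tested genes was 0.30, and list medians below are read against it. It was 0.40 with no scaling and 0.21 with DESeq2's size factors. Of the 8178 genes, 1118 were listed at 0 in both untreated libraries and 588 in both papain + FK506 libraries. Such genes passed the filter only through libraries where they were high, so the counts and medians of a list that holds many of them were partly fixed by the filter and are given as a description.

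Of the 20 genes of smallest p, Acta2 was the 1 on the smooth muscle list and on the actin cytoskeleton list. Acta2, the smooth muscle actin that marks myofibroblasts (GRCm38.p6, chr19:34240336-34255585), was at 1271.9 and 839.8 CPM in papain + FK506 libraries, 549.5 and 114.8 CPM in papain libraries, and 0 in both untreated libraries. It was called higher with papain + FK506 (limma, adjusted p = 0.0333). Marcks, a protein kinase C substrate that binds actin at the membrane (chr10:37133243-37138926), was at 723.5 and 613.4 CPM in papain + FK506, 390.7 and 151.7 CPM in papain, and 0 in both untreated libraries. It was called higher as well (limma, adjusted p = 0.0333). Neither gene had a papain + FK506 library near an untreated one, a gap that their choice by this same contrast favoured. With both untreated libraries at 0, the 2 genes passed the filter only through papain + FK506 and papain libraries. Their untreated values added no spread to the test. With 0.5 CPM added in place of 2, neither passed (limma, adjusted p = 0.091 for each). Both calls were lost when any 1 of the 6 libraries was left out (adjusted p 0.0925 to 0.68 for Acta2 and 0.0616 to 0.68 for Marcks), and over all 19 alternatives the adjusted p ran from 4.31e-09 to 0.68 for Acta2 and from 1.06e-10 to 0.68 for Marcks. Fitted log2 differences of 8.92 and 8.29 depend on the 2 CPM added and are no fold.

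The promoter of Acta2 is shown because it is the site where serum response factor and TEAD factors are known to act on this gene. The 160 bases before the transcript start in RefSeq's table (GRCm38.p6, chr19:34255374-34255533, minus strand) hold matches to the CArG box of serum response factor with 1 departure allowed, at 84 to 75 and 34 to 25 bases before the start, and to GGAATG or CATTCC, read by TEAD factors, at 146 to 141 bases before it. Capitals mark these matches. The window lies inside the gene span given above, so it precedes a transcript start within that span and not the span's outer end. Distances are counted from that transcript start.
Acta2: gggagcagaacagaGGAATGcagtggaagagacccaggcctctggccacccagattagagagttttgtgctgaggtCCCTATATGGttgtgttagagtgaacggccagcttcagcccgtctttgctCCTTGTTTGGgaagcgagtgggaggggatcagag
On either strand, a CArG match of that kind was present in 12.2% and a TEAD match in 8.08% of 32851 RefSeq promoter windows of this length. Of the 20 genes of smallest p, 13 had a window, and of these only Acta2 held either match. A match is a description of the letters, not of binding.

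The 20 genes of smallest p are named by rule, 18 higher and 2 lower, and all but Acta2 and Marcks missed the limma threshold (adjusted p 0.0751 to 0.201). Apart from H2-K1, they passed with edgeR. Nexn, an actin-filament protein of muscle, was at 428.3 and 513.1 CPM in papain + FK506, against 0 in both untreated libraries. Tubb6, a beta-tubulin, was at 966.2 and 498.9 CPM against 53.9 and 25.3 CPM. Lbh, a transcription cofactor first described in limb bud and heart, was at 390.9 and 186.4 CPM against 1.1 and 1.2 CPM. In all 3 genes every papain + FK506 value was far above every untreated value, which the choice by smallest p favoured. The list of smooth muscle and pericyte genes had 12 of 16 members tested, of which limma and edgeR each passed only Acta2. At an unadjusted p under 0.05, 7 members were higher and 1 (Lmod1) was lower, 9 did not overlap on the higher side, and the median was 3.34, or 2.61 with groups listed at 0 set to 3 reads per library. Over all tested genes 7.35% were higher and 4.35% lower at that p, and 24.9% did not overlap on the higher side. Of the 12 tested members 6 were listed at 0 in both untreated libraries. Of members chosen after their values were seen, the myosin kinase Mylk was at 515.8 and 483.6 CPM against 73.0 and 93.2 CPM, and desmin (Des) at 360.6 and 303.1 CPM against 0 and 51.8 CPM. The mural cell receptor Pdgfrb was at 35.0 and 42.5 CPM against 0 in both untreated libraries. Of the defining smooth muscle genes, the myosin Myh11 was at 0 and 5.9 CPM with papain + FK506 against 0 and 33.4 CPM, and Cnn1 (calponin) was listed at 0 in all 6 libraries. The 16 markers summed to 2651 and 2071 CPM in papain + FK506, 1587 and 454.1 CPM in papain, and 207.6 and 309.6 CPM in untreated, with 5 and 5 members at 0 in papain + FK506 against 12 and 11 in untreated. Acta2 is itself the largest part of that sum in papain + FK506, and the part of smooth muscle or pericytes in its result was not tested.

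Of the actin cytoskeleton and contraction list, 25 of 29 members were tested and limma passed 1, Acta2. At an unadjusted p under 0.05, 11 were higher and 0 lower, 18 did not overlap on the higher side and 1 on the lower, and the median was 1.42, with 5 members listed at 0 in both untreated libraries. The shares over all tested genes were 7.35% higher and 4.35% lower, with 24.9% and 14.4% not overlapping. Of the list's abundant members, which had no value of 0, beta-actin (Actb) was at 4807.7 and 4879.8 CPM with papain + FK506 against 1949.5 and 1314.5 CPM in untreated, a ratio of means of 2.97. Vimentin (Vim), the intermediate filament of mesenchymal cells, was at 4039.8 and 4017.5 CPM against 1507.3 and 1250.1 CPM, a ratio of 2.92. Alpha-actinin 1 (Actn1) was at 749.2 and 837.5 CPM against 125.7 and 153.0 CPM, a ratio of 5.69. None of these 3, chosen after their values were seen, passed limma or edgeR, although voom passed Vim alone.

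**Figure D2:**
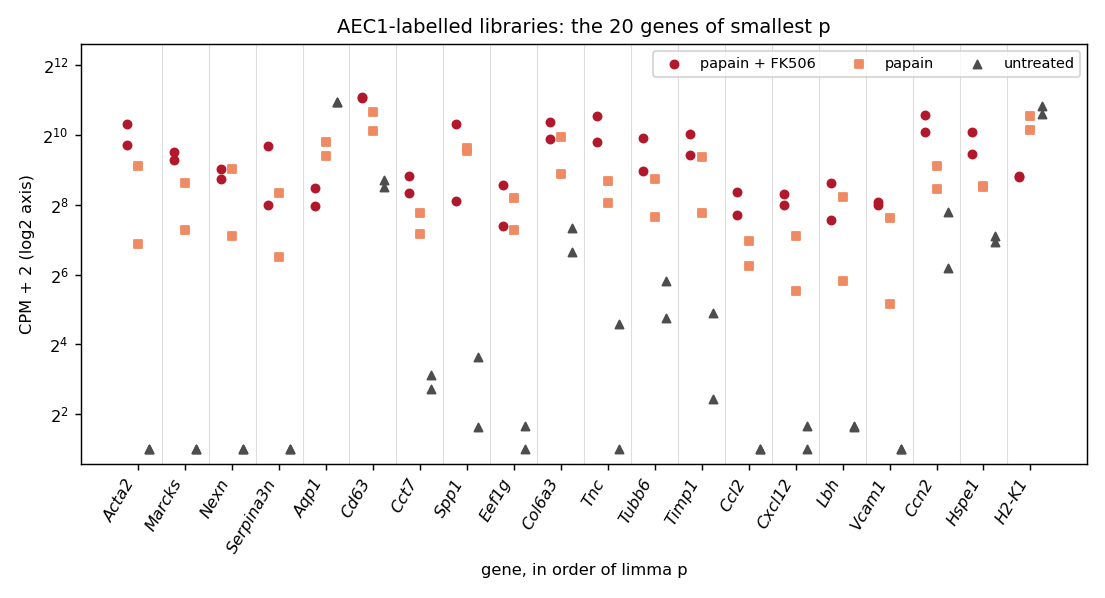
CPM with 2 added (log2 axis) of the 20 genes of smallest limma p, 1 point per AEC1-labelled library, papain + FK506 left, papain in the middle and untreated right. Points on the bottom line are values listed at 0. Papain + FK506 and untreated libraries did not overlap for any of the 20, which were chosen by this contrast.

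Matrix genes formed the next group. Col6a3, a chain of the microfibrillar collagen VI, was at 1319.8 and 947.2 CPM in papain + FK506, 972.0 and 464.4 CPM in papain, and 159.4 and 98.9 CPM in untreated libraries, an 8.78-fold ratio of the means of papain + FK506 and untreated. Tenascin C (Tnc), a matrix protein of wounds and development, was at 1472.6 and 892.9 CPM against 0 and 21.9 CPM. Timp1, an inhibitor of matrix metalloproteinases, was at 1040.9 and 688.9 CPM against 3.4 and 27.6 CPM, a 55.8-fold ratio of means. Spp1 (osteopontin), a secreted phosphoprotein of injured tissue, was at 1263.8 and 273.7 CPM against 1.1 and 10.4 CPM, and its papain + FK506 replicates differed several-fold. Ccn2, the connective tissue growth factor, was at 1073.6 and 1524.0 CPM against 217.7 and 70.2 CPM, a 9.02-fold ratio. The log2 differences were 3.00 (SE 0.45) for Col6a3, 5.93 (SE 0.91) for Timp1 and 3.21 (SE 0.57) for Ccn2.

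Of the collagen list 18 of 20 members were tested. None passed limma and edgeR passed Col6a3, while 9 were higher and 1 lower at an unadjusted p under 0.05, with a median of 1.70. Among all tested genes 7.35% were higher and 4.35% lower at that p. The main fibrillar collagens were abundant in both groups: Col1a1 was at 4242.9 and 2306.0 CPM in papain + FK506 against 1804.7 and 859.1 CPM in untreated, and Col3a1 at 2995.5 and 2477.0 CPM against 1832.8 and 860.3 CPM. For both, the papain replicate 1 library was close to or above the papain + FK506 libraries, at 4018.2 CPM for Col1a1 and 4990.2 CPM for Col3a1. Of the wider matrix list 38 of 40 members were tested, of which limma passed 0 and edgeR 2 (Tnc and Timp1). At an unadjusted p under 0.05, 14 were higher and 5 lower, 24 did not overlap on the higher side and 5 on the lower, and the median was 1.43, or 1.30 with groups listed at 0 set to 3 reads per library, with 6 members listed at 0 in both untreated libraries. For all tested genes, 24.9% did not overlap on the higher side and 14.4% on the lower. The list did not move as one: Ltbp4, which stores latent TGF-beta, was at 70.0 and 74.3 CPM with papain + FK506 against 453.4 and 438.2 CPM. Elastic fibre protein Fbln5 was at 1.2 and 17.7 CPM against 202.0 and 90.9 CPM, and the proteoglycan decorin (Dcn) at 2080.6 and 1861.3 CPM against 3494.9 and 3002.8 CPM. Fibronectin (Fn1) was on the other side, with 1379.3 and 881.1 CPM against 409.6 and 79.4 CPM. The fibroblast list itself had 16 of 18 members tested, 0 passed by limma or edgeR, 6 higher and 2 lower at an unadjusted p under 0.05, and a median of 1.26. Its sum was 28083 and 19537 CPM in papain + FK506, 28022 and 16962 CPM in papain, and 12416 and 10840 CPM in untreated, and its part in the matrix values was not tested.

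Chemokines and cytokines that draw in leukocytes were a further group. Ccl2, which recruits monocytes, was at 325.6 and 206.4 CPM in papain + FK506, 121.8 and 73.8 CPM in papain, and 0 in both untreated libraries. Cxcl12, which holds CXCR4-bearing cells, was at 311.6 and 252.4 CPM against 0 and 1.2 CPM. Vcam1, the adhesion ligand of leukocyte integrins, was at 266.1 and 254.8 CPM against 0 in both untreated libraries. Serpina3n, an acute-phase protease inhibitor, was at 826.2 and 250.1 CPM against 0 in both. Papain + FK506 and untreated values were well apart in all 4, which were chosen by smallest p in this contrast. Of the chemokine list 12 of 24 members were tested. Limma passed none, edgeR passed 3 (Ccl2, Cxcl12 and Cxcl1), and 7 were higher and 1 lower at an unadjusted p under 0.05, with a median of 3.46, or 2.73 with groups listed at 0 set to 3 reads per library. Of the 12, 4 were listed at 0 in both untreated libraries. At that p, 7.35% of all tested genes were higher and 4.35% lower. Cxcl1, a neutrophil attractant chosen after its values were seen, was at 416.6 and 522.5 CPM with papain + FK506, 169.4 and 43.1 CPM with papain, and 14.6 and 0 CPM in untreated libraries. The lower member was Cxcl15 (lungkine), made by lung epithelium, at 84.0 and 313.8 CPM against 502.8 and 492.2 CPM. Among ligands of type 2 inflammation, Ccl11 (eotaxin) and Ccl17 were listed at 0 in all 4 libraries, and Ccl24 was at 0 and 30.7 CPM against 0 in both. Of the NF-kB and cytokine list 16 of 22 members were tested, 0 passed by limma and 1 (Vcam1) by edgeR, 7 higher and 0 lower at an unadjusted p under 0.05, with a median of 1.95 and 4 members listed at 0 in both untreated libraries. Among them, Il11, a cytokine of the interleukin 6 family that acts on fibroblasts, was at 187.9 and 101.4 CPM against 0 in both untreated libraries. Csf1, the macrophage growth factor, was at 276.6 and 168.7 CPM against 40.4 and 77.1 CPM.

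Acute-phase genes were split. Saa3, a serum amyloid A protein and 1 of the 26 genes higher by edgeR, was at 797.0 and 1821.2 CPM with papain + FK506, 1954.6 and 35.9 CPM with papain, and 1.1 and 1.2 CPM in untreated libraries. Lipocalin 2 (Lcn2), which binds bacterial siderophores, was at 166.9 and 145.1 CPM against 0 in both untreated libraries. The complement protease C1s1 was at 112.0 and 278.4 CPM against 721.7 and 496.8 CPM. Within the list 15 of 21 members were tested, limma passed 0 and edgeR 1, 3 were higher and 3 lower at an unadjusted p under 0.05, and the median was -0.68. Most leukocyte markers were listed at 0 in both groups. The 24 macrophage, monocyte and dendritic markers summed to 434.1 and 443.4 CPM in papain + FK506 and 433.1 and 475.3 CPM in untreated, with 16 and 13 members at 0 against 17 and 14. Neutrophil markers summed to 0 and 83.7 CPM against 0 and 3.5 CPM, eosinophil markers to 0 in both against 0 and 26.5 CPM, T, NK and innate lymphoid markers to 71.2 and 0 CPM against 64.0 and 9.2 CPM, and B and plasma cell markers to 35.0 and 0 CPM against 0 in both. None of 8 genes tested of 25 on the IL-4 and IL-13 response list passed limma, with 2 higher and 0 lower at an unadjusted p under 0.05, and 2 of the 8 were listed at 0 in both untreated libraries. The median of this list was 2.73, or 1.27 with groups listed at 0 set to 3 reads per library. Its 25 members summed to 500.6 and 579.1 CPM in papain + FK506, 603.3 and 1102 CPM in papain, and 301.9 and 165.7 CPM in untreated. For the lists of this paragraph, the shares over all tested genes at an unadjusted p under 0.05 were 7.35% higher and 4.35% lower.

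The promoter of Cxcl1 is set beside that of H2-K1, a class I histocompatibility gene on the opposite side of this comparison, because both are known targets of NF-kB and both hold a match to its κB motif. In the 160 bases before the transcript start in RefSeq's table (GRCm38.p6; Cxcl1 chr5:90891085-90891244, plus strand; H2-K1 chr17:34000348-34000507, minus strand) capitals mark the matches, which overlap each other and begin 71 bases before the start in Cxcl1 and 111 bases before it in H2-K1.
Cxcl1: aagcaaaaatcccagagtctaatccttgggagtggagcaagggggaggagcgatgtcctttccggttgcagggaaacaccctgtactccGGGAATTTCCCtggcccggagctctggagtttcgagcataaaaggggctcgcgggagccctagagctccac
H2-K1: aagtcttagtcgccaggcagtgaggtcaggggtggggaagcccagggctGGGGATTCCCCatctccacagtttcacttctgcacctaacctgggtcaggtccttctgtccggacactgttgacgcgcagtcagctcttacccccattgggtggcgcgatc
The κB motif, read on both strands, was present in 4.95% of the 32851 windows, and in 2 of the 13 named genes with a window, H2-K1 and Hspe1. H2-K1 was at 444.6 and 449.4 CPM in papain + FK506, 1114.9 and 1476.2 CPM in papain, and 1821.5 and 1556.0 CPM in untreated libraries, with untreated 3.78 times papain + FK506 (difference of log2 values -2.04, SE 0.36; limma adjusted p = 0.201). It did not pass edgeR, and reads of class I genes can be split among near-identical copies. Of the class I presentation list 14 of 18 members were tested, with 0 higher and 1 lower (H2-K1) at an unadjusted p under 0.05 and a median of -1.10, or -0.71 with groups listed at 0 set to 3 reads per library. Over all tested genes 4.35% were lower at that p.

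Genes of vesicles, protein folding and translation were also among the 20. Cd63, a tetraspanin of late endosomes and exosomes (chr10:128896231-128912822), was at 2115.6 and 2178.6 CPM in papain + FK506, 1605.2 and 1111.3 CPM in papain, and 359.1 and 412.9 CPM in untreated libraries. The replicates were close, and the ratio of means was 5.56 (difference of log2 values 2.34, SE 0.33; limma adjusted p = 0.119). Cct7, a subunit of the chaperonin that folds actin and tubulin, was at 320.9 and 451.8 CPM against 6.7 and 4.6 CPM, a 68.4-fold ratio. Hspe1, the mitochondrial co-chaperonin, was at 703.6 and 1075.7 CPM against 119.0 and 134.6 CPM, a 7.02-fold ratio, and its partner Hspd1 was at 128.4 and 259.5 CPM against 2.2 and 0 CPM. Eef1g, a translation elongation factor subunit, was at 378.1 and 166.3 CPM against 0 and 1.2 CPM. Hspe1, Eef1g and ribosomal protein genes have near-identical copies in the genome, so their counts are uncertain. Heat shock genes as a list had 17 of 17 members tested, 4 higher and 2 lower at an unadjusted p under 0.05, and a median of -0.03, which was 0.10 without scaling. The cytosolic chaperone Hsp90aa1 was on the lower side, at 850.7 and 738.4 CPM against 1232.3 and 2479.5 CPM. Of 86 cytosolic ribosomal protein genes 81 were tested, 24 were higher and 0 lower at an unadjusted p under 0.05, and 60 did not overlap on the higher side and 1 on the lower. Their median was 0.91, and they summed to 61438 and 52103 CPM in papain + FK506, 58928 and 35340 CPM in papain, and 32789 and 25218 CPM in untreated, without a single limma or edgeR call. Beside these counts, 7.35% of all tested genes were higher and 4.35% lower, and 24.9% and 14.4% did not overlap. In the unfolded protein list 21 of 24 members were tested, and the median was 0.65. At an unadjusted p under 0.05, 3 were higher and 0 lower, beside 7.35% and 4.35% of all tested genes. The list's chaperone Hspa5 (BiP) was at 2692.1 and 3552.8 CPM against 1595.9 and 1068.4 CPM. The oxidative stress list had 22 of 25 members tested, 8 higher and 1 lower at an unadjusted p under 0.05 and a median of 1.36. Metallothionein 2 (Mt2) was at 2351.3 and 2156.2 CPM against 827.2 and 587.7 CPM, and the ferritin chain Fth1 at 2317.5 and 2671.7 CPM against 1110.0 and 1142.0 CPM. Of the cell cycle list 25 of 30 members were tested, 9 of them listed at 0 in both untreated libraries. At an unadjusted p under 0.05, 2 were higher and 0 lower, near the 7.35% of all genes that were higher. There was 1 edgeR call, Birc5 (survivin), at 204.2 and 140.4 CPM against 0 in both untreated libraries.

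**Figure D3:**
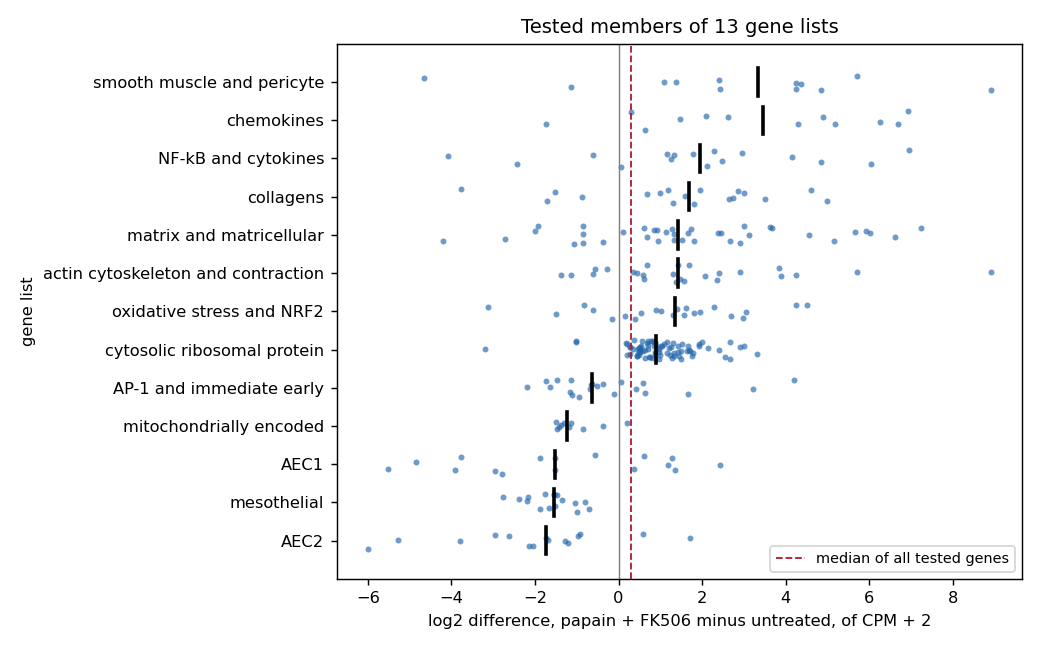
Log2 difference of CPM + 2, papain + FK506 minus untreated, for the tested members of 13 gene lists. Each point is a gene, a black bar is the median of its list, and the dashed line is the median of all tested genes (0.30). Smooth muscle, chemokine, collagen and matrix lists had medians from 1.43 to 3.46, and the mesothelial, AEC1 and AEC2 lists had medians of -1.55, -1.52 and -1.73.

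On the lower side, the water channel Aqp1 (chr6:55336299-55348555), found in endothelium and mesothelium, was at 351.2 and 245.3 CPM in papain + FK506, 675.5 and 891.9 CPM in papain, and 1948.4 and 1968.9 CPM in untreated libraries. Untreated libraries held 6.57 times the papain + FK506 mean (difference of log2 values -2.86, SE 0.39; limma adjusted p = 0.119), and edgeR passed the gene. The other 2 genes lower by edgeR, chosen after their values were seen, were Igfbp5 and Myo5b. Igfbp5, which binds insulin-like growth factors, was at 1703.7 and 1328.2 CPM against 10041.4 and 9322.5 CPM. Papain libraries for this gene were far apart, at 2229.9 and 6491.2 CPM. Myo5b, a vesicle motor of epithelial cells, was at 1.2 and 3.5 CPM against 135.8 and 225.4 CPM. All 16 mesothelial markers were tested. Limma and edgeR passed 0, 10 were lower and 0 higher at an unadjusted p under 0.05, 14 did not overlap on the lower side, and the median was -1.55. Over all tested genes 4.35% were lower at that p, and 14.4% did not overlap on the lower side. Mesothelin (Msln) was at 65.3 and 172.2 CPM with papain + FK506, 410.8 and 588.4 CPM with papain, and 685.7 and 663.6 CPM in untreated libraries. Lrrn4, another mesothelial surface marker, was at 1023.4 and 1467.4 CPM against 3279.4 and 2496.8 CPM, and Krt19 at 128.4 and 133.3 CPM against 673.4 and 447.4 CPM. The mesothelial sum, like Aqp1, was lower in both papain + FK506 libraries than in both untreated libraries. In papain it was 7257 and 14838 CPM, so replicate 2 held the highest sum of the 6 libraries although its Aqp1 was below untreated. The part of mesothelial cells in the Aqp1 result was not tested. Most endothelial markers were listed at 0: 15 of 20 endothelial markers were at 0 in each papain + FK506 library and 15 and 16 in untreated, among them Cdh5, Tek and Vwf in every library. Their sums were 152.8 and 172.2 CPM against 647.6 and 392.2 CPM, of which Kdr, the VEGF receptor, made 75.8 and 77.9 CPM against 450.1 and 250.7 CPM.

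The AEC1 and AEC2 marker lists both had negative medians, with single AEC1 markers on either side. Of 16 tested AEC1 markers none passed limma or edgeR, 1 was higher (Pdpn) and 4 lower at an unadjusted p under 0.05, 5 did not overlap on the higher side and 7 on the lower, and the median was -1.52. Among all tested genes 7.35% were higher and 4.35% lower at that p, and 24.9% and 14.4% did not overlap. Caveolin 1 (Cav1), the coat protein of the flask-shaped pits of AEC1 and endothelium, was at 172.7 and 38.9 CPM with papain + FK506 against 499.4 and 570.4 CPM. Pdpn differed by 1.36 (log2, SE 0.55, limma adjusted p = 0.402). The source of Pdpn transcripts in these libraries, where fibroblast and mesothelial sums exceeded the AEC1 sum, was not tested. Ager differed by 0.60 on the log2 scale (SE 0.89; limma adjusted p = 0.806), and Aqp5 was at 0 and 31.8 CPM against 47.1 and 74.8 CPM. Of 15 tested AEC2 markers, 0 were higher and 7 lower at an unadjusted p under 0.05, with a median of -1.73 and no limma or edgeR call. Surfactant protein C (Sftpc) was at 624.3 and 1672.6 CPM in papain + FK506, 931.8 and 453.1 CPM in papain, and 2304.1 and 3967.7 CPM in untreated libraries. The club cell secretoglobin Scgb1a1 was at 250.9 and 36.6 CPM against 640.8 and 281.8 CPM. Both are abundant in AEC2-labelled libraries (Sftpc at 32887.2 to 61276 CPM there), and the source of these transcripts in AEC1-labelled libraries was not tested. Among alarmins, Tslp was listed at 0 in all 4 libraries. Il33 was at 3.5 and 0 CPM in papain + FK506 against 145.9 and 17.3 CPM in untreated libraries, with 0 and 87.1 CPM in papain. The EGF receptor ligand Areg was listed at 0 in both papain + FK506 and both papain libraries, against 86.4 and 29.9 CPM in untreated (limma adjusted p = 0.314).

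The targets of FK506 were measured next. Fkbp1a, the drug's binding partner, was at 584.6 and 574.4 CPM with papain + FK506, 315.5 and 316.8 CPM with papain, and 296.3 and 131.1 CPM in untreated libraries. The ratio of means was 2.71, and the difference did not pass (log2 1.41, SE 0.50; limma adjusted p = 0.342). Calcineurin's regulatory subunit Ppp3r1 was at 413.1 and 428.2 CPM against 187.4 and 54.1 CPM (log2 1.91, SE 0.66; limma adjusted p = 0.337). Its catalytic subunit Ppp3ca overlapped between groups, at 250.9 and 106.2 CPM against 165.0 and 220.8 CPM. Readouts of calcineurin and NFAT signalling gave no common direction. Rcan1, an NFAT-induced inhibitor of calcineurin, was at 5.8 and 22.4 CPM against 20.2 and 18.4 CPM. Nfatc1 was at 24.5 and 27.1 CPM against 0 in both untreated libraries. Nr4a1, an immediate early nuclear receptor, was at 336.1 and 89.6 CPM against 378.2 and 288.7 CPM. The limma adjusted p was 0.487 to 0.934 for Ppp3ca, Rcan1, Nfatc1 and Nr4a1. Of the 15 tested members of the 18-gene calcineurin, NFAT and NR4A list, 1 was higher and 0 lower at an unadjusted p under 0.05 (median -0.57). Of the 14 tested FK506-binding proteins and cyclophilins, 2 were higher and 0 lower (median 1.10). The shares over all tested genes at that p were 7.35% higher and 4.35% lower. Immediate early genes had 21 of 23 members tested, with 1 higher (Ccn2) and 4 lower at an unadjusted p under 0.05 and a median of -0.63. Atf3, a stress-induced repressor, was at 232.2 and 121.5 CPM with papain + FK506 against 619.5 and 809.6 CPM. Egr1 was at 837.8 and 583.9 CPM against 1836.1 and 1094.9 CPM.

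Mitochondrially encoded transcripts had 10 of 15 members tested, 4 lower and 0 higher at an unadjusted p under 0.05, and a median of -1.24. Over all tested genes 4.35% were lower and 7.35% higher at that p. Cytochrome oxidase subunit COX1 was at 1655.8 and 1362.4 CPM with papain + FK506, 2270.1 and 3273.3 CPM with papain, and 3686.8 and 3681.4 CPM in untreated libraries. Nuclear genes of oxidative phosphorylation did not share this: of 65 tested, 1 was higher and 0 lower at an unadjusted p under 0.05, and the median was 0.28. The part of the share of mitochondrial RNA in the values of the other lists was not tested. Scaling to the CPM outside mitochondrial and ribosomal RNA left the medians at 3.32 for smooth muscle, 1.41 for matrix, 3.45 for chemokine and -1.57 for mesothelial genes. The median of all tested genes was then 0.29. Such scaling moves all genes of a library nearly alike, so it could not shift lists against each other. Without papain replicate 2, the medians were 4.28 for smooth muscle, 1.44 for matrix, 3.48 for chemokine and -1.55 for mesothelial genes. The median of all tested genes was then 0.31, and 11 smooth muscle members were tested. Papain libraries enter these medians only through the filter and the scaling.

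The same contrast in AEC2-labelled libraries gave a direct comparison. Among these, untreated replicate 2 and papain replicate 2 were nearly the same: their log2 values correlated at r = 0.99, against 0.52 to 0.58 for the other 14 AEC2 pairs, and 39.5% of 5583 genes had equal numbers of recovered reads, against at most 0.433% in those other pairs where reads were recovered. In 96.6% of these genes the papain library had no more reads than the untreated one. The untreated label of that library is therefore uncertain, and every AEC2 value below rests partly on it. Limma passed 0 of 9841 genes (0%) for the difference between AEC1 and AEC2 in the log2 change with papain + FK506 (778 at an unadjusted p under 0.05, 7.91%), and 0 again without both of these libraries (956 unadjusted). The AEC2 contrast alone also had 0 calls (573 unadjusted).

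Named by rule are the genes with the smallest p in that difference. Npc2, a cholesterol carrier of lysosomes and surfactant-secreting cells, was at 357.1 and 414.0 CPM in papain + FK506 and 1222.2 and 1492.8 CPM in untreated AEC1-labelled libraries, and at 13562.8 and 14423.1 CPM against 5987 and 8957.5 CPM in AEC2-labelled libraries. The groups were in opposite order in the 2 sorts, and the difference of log2 changes was -2.74 (SE 0.41; limma adjusted p = 0.335). Lamp3, a lamellar body protein, was at 0 and 5.9 CPM against 255.9 and 231.2 CPM in AEC1-labelled libraries and at 1589.0 and 1742.5 CPM against 617 and 1487.4 CPM in AEC2-labelled ones (limma adjusted p of the difference = 0.489). The AEC2 marker list, which holds Lamp3, summed to 2350 and 5753 CPM against 8158 and 12322 CPM in AEC1-labelled libraries. The source of Npc2 and Lamp3 transcripts in those libraries was not tested. The Golgi protein Golm1 was at 16.3 and 0 CPM against 237.9 and 144.9 CPM in AEC1-labelled libraries and at 76.3 and 78.7 CPM against 0 and 0.8 CPM in AEC2-labelled ones. Fitm2, of lipid droplet formation, and Galnt11, a glycosyltransferase, completed the 5 on the negative side. On the positive side were Cct7, Lbh, Acta2, Eef1g and the arginine carrier Slc7a2, each with a limma adjusted p of 0.508. Cct7 was at 80.8 and 188.1 CPM with papain + FK506 against 218 and 140.8 CPM in untreated AEC2-labelled libraries. Of the 20 genes of smallest p in AEC1, 7 (Acta2, Serpina3n, Tnc, Timp1, Ccl2, Cxcl12 and Vcam1) were listed at 0 in all 6 AEC2-labelled libraries. Cd63 was at 1656.3 and 1466.6 CPM against 981 and 1008.8 CPM in AEC2-labelled libraries, and H2-K1 at 1282.1 and 1438.4 CPM against 1354 and 1287.3 CPM.

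**Figure D4:**
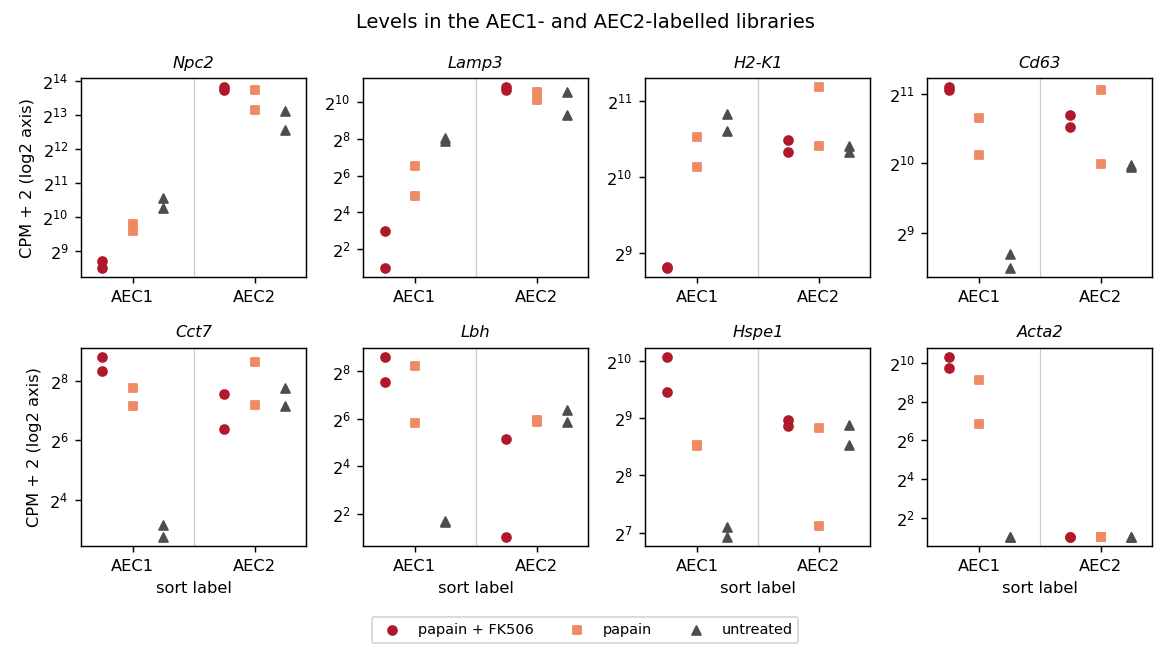
CPM with 2 added (log2 axes that differ between panels) of 8 genes in AEC1- and AEC2-labelled libraries, 1 point per library, papain + FK506 left, papain in the middle and untreated right within each sort label. Npc2 was higher with papain + FK506 than in untreated AEC2-labelled libraries and lower in AEC1-labelled ones, where the source of its transcripts was not tested. Acta2 was listed at 0 in every AEC2-labelled library.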

How the data were processed

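The authors deposited CPM values per gene for each AEC1 library, and for 5 AEC2 libraries. AEC2 untreated replicate 1 holds whole numbers on the same scale, apparently rounded by the authors, and is handled as a score. Per the labels' protocols, a Lexogen 3′ kit was used on 10 ng of total RNA. STAR 2.7.0c, featureCounts 1.6.0 and the builds mm10 and GRCm38.p6 appear in the submitters' processing notes without a stated role; strand setting and handling of multi-mapping reads are not given in the sources used here.

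In all 6 AEC1 libraries 100% of low values were whole multiples of 1 read, within 0.1 read. CPM were divided by TMM factors from edgeR 4.0.16. Log2 of the result plus 2 CPM went into limma 3.58.1 (trend, two-sided) over all 6 AEC1 libraries, for genes at 10 CPM in at least 2 libraries, with Benjamini-Hochberg adjustment at 0.05. The added 2 CPM make log2 differences understate changes of low genes. The AEC1 minus AEC2 difference was an interaction contrast over 12 libraries. Alternatives were edgeR's quasi-likelihood test, DESeq2 1.42.0 and voom on the recovered reads, other scalings, filters and added constants, and leaving out each library. Coordinates and promoters are RefSeq's (GRCm38.p6).

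Genes were named by rule: up to 15 in each direction that passed with a mean of at least 30 CPM and no overlap, filled to 20 by smallest p; the passing list members; a fixed set of FK506 targets, epithelial markers and alarmins; and 5 in each direction of the AEC1 minus AEC2 difference. Others are said to be chosen after their values were seen, as are list members given without a call. Members, lists and genes were chosen with earlier results of these data known.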

Additional observations from a re-analysis of the deposited data

How the results depend on the processing

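The 2 genes called with papain + FK506 became 0 with 0.5 CPM added, 8 with 5 CPM added, 12 with a filter of 30 CPM, 0 with only the 4 libraries compared, 38 with robust empirical Bayes, and 29, 457 and 1 with edgeR, DESeq2 and voom on the recovered reads. The cause was not tested. Leaving out 1 library at a time gave 0 to 1 genes; the 1 gene, without untreated replicate 2, was Tnc, and the voom gene was Vim. No filter, the other scalings and the replicate block each gave the same 2 genes. No pairing by title number was seen: replicate differences of the groups correlated at 0.017, 0.009 and -0.019 across genes. With replicates this loose, that cannot say whether the libraries were paired. The block left the count at 2 and the AEC1 minus AEC2 count at 0. That count was 0 under every alternative run. Of 172 named or listed genes, 2 changed sign when a papain + FK506 library was left out, Rcan1 (log2 0.13 without replicate 1 and -1.60 without replicate 2) and Ppp3ca (-0.91 and 0.20). With 2 libraries per group and about 1 CPM per read, values of a few CPM rest on a few reads.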

Other observations

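Of the 8178 genes tested, 70 were listed at 0 in both untreated libraries and at 50 CPM or more in both papain + FK506 libraries, and 26 were the reverse; with Gapdh at 0 throughout, a listed 0 is not read as absence. Among genes that reached 50 CPM in at least 1 library of a group, 14.5% in papain + FK506, 15.6% in papain and 22% in untreated were listed at 0 in the partner library. Nuclear noncoding RNAs summed to 37426 and 50193 CPM in papain + FK506, 30418 and 16065 CPM in papain, and 70928 and 96691 CPM in untreated libraries.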
